A study of Homo sapiens with 12 samples.

Results

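The non-coding genes GAS5, ZFAS1, SNHG1, SNHG5, SNHG6, SNHG8, SNHG12, SNHG15, SNHG16 and SNHG17 carry small nucleolar RNAs (snoRNAs) in their introns, and their transcription was followed in human cells transfected with an siRNA to INTS11. They were taken by symbol from a list of host genes, and all 10 were found among the 60583 genes counted. The assay was TT-seq: RNA made during a short pulse of 4-thiouridine is fragmented, tagged with biotin, captured and sequenced, so that reads fall on introns as well as exons. The 12 libraries came from U2OS, a human osteosarcoma line, in 4 groups of 3 replicates, each harvested 48 hours after transfection. U2OS cells received a control siRNA (siCtrl) or an siRNA to INTS11 (siINTS11). U2OS-AsiSI cells, which are U2OS cells carrying the restriction nuclease AsiSI fused to ER (AsiSI-ER), received the same siRNAs and in both groups were also given OHT for 1 hour. Nuclease, OHT and cell line therefore cannot be told apart when the lines are compared. INTS11 is the catalytic subunit of Integrator, which cuts new transcripts behind RNA polymerase II, and the study was concerned with how far polymerase travels without it. The labels do not say whether replicates were separate cultures, so p-values measure the spread between these libraries, which may be technical.

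A snoRNA host gene is transcribed by RNA polymerase II and spliced, and the snoRNA is trimmed out of the removed intron, where proteins bound to it protect it from the exonucleases. Box C/D snoRNAs guide methylation of ribosomal RNA and box H/ACA snoRNAs guide its pseudouridylation. Many host genes have promoters of the TOP type, which begin transcription at a C followed by a run of pyrimidines and are shared with ribosomal protein genes, while the spliced host RNAs are often destroyed by nonsense-mediated decay. A nascent measurement such as TT-seq reads the making of the host transcript before that decay.

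Promoter sequences are shown because they let the members be sorted by the feature that TOP promoters are known for. RefSeq (GRCh38.p14) gave a start site for 8 members whose sequence could be used. In each line below, 40 bases before the start are followed by the first 20 bases of the transcript, 5′ to 3′ on the gene's strand, and capitals mark TATAA lying 20 to 40 bases before the start and an unbroken pyrimidine run of at least 5 bases that begins with C at the first transcribed base. Both were searched on the gene's strand only.
ZFAS1 (chr20:49278602-49278661, plus strand): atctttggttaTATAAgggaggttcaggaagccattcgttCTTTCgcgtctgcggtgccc
SNHG5 (chr6:85678714-85678773, minus strand): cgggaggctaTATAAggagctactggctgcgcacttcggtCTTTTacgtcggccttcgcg
SNHG12 (chr1:28581854-28581913, minus strand): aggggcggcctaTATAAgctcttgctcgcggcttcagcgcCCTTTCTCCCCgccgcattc
SNHG8 (chr4:118278722-118278781, plus strand): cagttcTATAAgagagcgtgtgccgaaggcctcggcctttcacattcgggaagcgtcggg
GAS5 (chr1:173869026-173869085, minus strand): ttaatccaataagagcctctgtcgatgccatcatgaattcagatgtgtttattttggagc
TATAA stood in that window in 4 of the 8 promoters (ZFAS1, SNHG5, SNHG8 and SNHG12), against 4.07% of 27303 RefSeq promoters. The pyrimidine run began at the first base in 3 of the 8 (ZFAS1, SNHG5 and SNHG12), against 4.04% of all promoters. Those 3 held both features, which 0.0879% of all promoters did. GAS5, shown last, had neither at the listed start, nor did SNHG1, SNHG16 and SNHG17. Among 33 promoters of protein-coding snoRNA hosts, 12.1% held TATAA and 45.5% the pyrimidine run. These are matches of letters at one listed start per gene, and its distance from the start in the count tables ran from -163 bases (GAS5) to 1259 bases (SNHG12), positive values lying downstream.

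The snoRNAs inside the hosts show what kind of RNA each host delivers. By coordinates, 24 snoRNA genes lay within 9 of the members on the same strand, and the snoRNAs of GAS5 are not analysed here. ZFAS1 held 3 (SNORD12, SNORD12B and SNORD12C), SNHG1 held 6 (SNORD22, SNORD25 to SNORD28 and SNORD30), SNHG16 held 3 of the SNORD1 group, SNHG5 held SNORD50B and SNHG6 held SNORD87, all of the box C/D class. SNHG8 held SNORA24, SNHG15 held SNORA9 and SNHG17 held 4 SNORA71 genes, all of the box H/ACA class. SNHG12 held 3 box H/ACA genes (SNORA16A, SNORA44 and SNORA61) and the box C/D gene SNORD99. In the sequences below, from GENCODE 29 (GRCh38), capitals mark the box C letters TGATGA within the first 20 bases and the box D letters CTGA within the last 20 of a box C/D snoRNA, or ACA ending 3 bases before the 3′ end of a box H/ACA snoRNA.
SNORD12 in ZFAS1 (chr20:49280683-49280772, plus strand): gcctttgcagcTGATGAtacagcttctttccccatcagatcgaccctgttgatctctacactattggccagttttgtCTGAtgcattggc
SNORD25 in SNHG1 (chr11:62855564-62855632, minus strand): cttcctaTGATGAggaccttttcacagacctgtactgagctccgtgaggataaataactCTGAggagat
SNORD50B in SNHG5 (chr6:85677589-85677658, minus strand): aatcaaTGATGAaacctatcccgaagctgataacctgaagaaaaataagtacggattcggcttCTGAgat
SNORD1B in SNHG16 (chr17:76561109-76561192, plus strand): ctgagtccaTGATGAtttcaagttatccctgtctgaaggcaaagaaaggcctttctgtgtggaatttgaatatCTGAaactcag
SNORA24 in SNHG8 (chr4:118279190-118279320, plus strand): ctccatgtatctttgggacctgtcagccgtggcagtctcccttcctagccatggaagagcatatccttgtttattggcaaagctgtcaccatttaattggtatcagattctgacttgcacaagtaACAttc
SNORA9 in SNHG15 (chr7:44985378-44985510, minus strand): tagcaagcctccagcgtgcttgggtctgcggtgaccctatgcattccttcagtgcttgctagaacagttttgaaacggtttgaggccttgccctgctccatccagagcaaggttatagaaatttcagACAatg
Of the 15 box C/D snoRNAs nested in the members, 9 held both boxes in those exact letters, against 64.9% of 288 in the annotation. Of 9 box H/ACA snoRNAs, 4 held ACA at that place, against 75.2% of 149. The listed sequences of SNORA71A, SNORA71C and SNORA71D end in aca itself, which this search does not count. A missing match is therefore not a missing box.

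None of the 24 nested snoRNA genes had a read in any of the 12 libraries. The same was true of all 424 snoRNA genes that lay inside another gene on their strand, whereas 14 of 28 that overlapped no other gene (50%) were listed at 0. A 0 for these genes therefore says nothing about the snoRNAs themselves, and the hosts are measured here only through the reads assigned to the host.

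The members were short. Their spans in the count tables ran from 3939 bases (SNHG15) to 28442 bases (SNHG5), against a median of 30305 bases over the genes tested. ZFAS1 (GRCh38, chromosome 20, 49278178 to 49299600, plus strand) and SNHG17 (chromosome 20, 38419638 to 38435409, minus strand) came next to SNHG5 in length, and SNHG1 (chromosome 11, 62851984 to 62855953, minus strand) was among the shortest. For 3 members the table's span was far longer than in GENCODE 29: 6608 against 1115 bases for SNHG8, 10324 against 4983 for GAS5 and 28442 against 17799 for SNHG5. Values per base divide by the table's span and are lower where that span is generous. ZFAS1, SNHG1, SNHG5 and SNHG17 also overlap another gene on their strand, and reads there could have been shared or lost.

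Per length of the table's span, the members had similar read levels with 1 exception. In U2OS under siCtrl the level per kilobase of span, in CPM (reads relative to library size, with TMM factors from edgeR) per kilobase, was highest in SNHG1 at 11.8 ± 0.742 (SD, n = 3). SNHG6 (10.4), ZFAS1 (10.4), SNHG15 (9.69) and GAS5 (9.65) followed, and each of these 5 overlapped its neighbour in the order. SNHG16 (8.26) and SNHG8 (7.99) lay below them with no overlap, then SNHG17 (7.08) and SNHG12 (6.79). SNHG5 stood last and apart at 2.02 ± 0.0398.

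The siRNA and the libraries were examined next. INTS11 had 284, 351 and 269 reads in U2OS-AsiSI under siCtrl and 258, 212 and 277 under siINTS11, which edgeR put at -0.13 on the log2 scale (SE 0.08, adjusted p 0.172). In U2OS it had 277, 314 and 286 reads against 260, 216 and 225, a log2 change of -0.42 (adjusted p 6.08e-05, edgeR). Under library totals alone the U2OS-AsiSI value was 0.062, so siINTS11 below means the libraries labelled so. TT-seq counts new RNA, and neither mature INTS11 RNA nor its protein was measured here. These counts therefore cannot show how well the siRNA worked in either line. Total counts ran from 20704611 to 38065726, and in U2OS-AsiSI the totals under siINTS11 (20704611 to 26579035) lay below all of those under siCtrl (28299433 to 32981069). Of 8 osteoblast-lineage markers, 3 (RUNX2, COL1A1 and ALPL) had a median of at least 1 CPM and BGLAP was listed at 0. Whether a listed 0 among the markers meant a silent gene was not tested. The summed level of the 8 was 541 to 552 CPM in U2OS siCtrl, 315 to 350.3 in U2OS siINTS11, 417 to 441 in U2OS-AsiSI siCtrl and 238 to 265 in U2OS-AsiSI siINTS11. Of 8 markers of other cell types, EPCAM and PECAM1 reached that level, TNNT2 was listed at 0, and their sum was 5.13 to 6.22 CPM in U2OS siCtrl, 9.36 to 9.57 in U2OS siINTS11, 4.81 to 5.95 in U2OS-AsiSI siCtrl and 7.96 to 9.2 in U2OS-AsiSI siINTS11. Under siINTS11 the osteoblast-lineage sum was thus lower and the other sum higher, without overlap, in both lines. The first sum was mostly RUNX2 (median 286 CPM over all libraries) and COL1A1 (93.1). The second was mostly EPCAM (4.94) and PECAM1 (2.02). Each sum therefore follows few genes and does not show a shift of a whole marker list. In bulk samples fewer cells of a type and less RNA per cell cannot be told apart, and the part of these markers in the results was not tested.

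In U2OS-AsiSI, 9 of the 10 host genes had higher scaled levels under siINTS11 than under siCtrl, and none was lower. Of all genes tested, 68.0% were called, 35.4% higher and 32.6% lower (edgeR quasi-likelihood test, Benjamini-Hochberg adjusted p under 0.05). The rises were small. The largest was SNHG12 and the smallest called one SNHG16, and only ZFAS1 did not pass. The median log2 fold change of the 10 was 0.20, against 0.031 over all 20441 genes tested. The 9 calls included 4 of the 4 hosts with box H/ACA snoRNAs, of which SNHG12 also holds a box C/D gene, and 5 of the 6 others. Among all genes with 0.2 to 0.4 raw reads per base, where 9 members lay, 71.7% were called higher. Nothing about the snoRNA classes follows from the split.

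Among the hosts of box H/ACA snoRNAs, SNHG12 changed most. Its scaled levels were 34.0, 35.6 and 39.5 CPM under siCtrl and 44.3, 52.6 and 45.2 CPM under siINTS11. The 3 treated libraries all lay above the 3 controls, with replicate 2 of siINTS11 standing highest. The change was 0.38 on the log2 scale (SE 0.06, adjusted p 2.37e-06 in edgeR). SNHG15, the host of SNORA9, had 44.3, 45.5 and 49.4 CPM under siCtrl and 54.5, 62.5 and 53.7 CPM under siINTS11, again with no overlap. It rose by 0.30 on the log2 scale (SE 0.06, adjusted p 3.04e-05 in edgeR). SNHG17, the host of the SNORA71 group, had 134, 132 and 141 CPM against 151, 173 and 152 CPM, and rose by 0.23 (SE 0.05, edgeR adjusted p 0.00018). SNHG8, which carries SNORA24, had 54.5, 52.7 and 59.1 CPM against 60.9, 70.4 and 60.8 CPM, a log2 fold change of 0.21 with the groups just short of overlap.

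Among the hosts of box C/D snoRNAs, GAS5, a host known for accumulating when cell growth stops, had 103, 103 and 116 CPM under siCtrl and 113, 136 and 115 CPM under siINTS11. The groups overlapped, because the highest control lay above 2 of the treated libraries, and the change was 0.18 on the log2 scale (SE 0.06, adjusted p 0.0063 in edgeR). SNHG6 changed by 0.22, SNHG1 by 0.17, SNHG5 by 0.16 and SNHG16 by 0.15 on the log2 scale, all past the test. SNHG5, the host of SNORD50B, had 61.0, 58.9 and 64.3 CPM under siCtrl and 65.9, 74.7 and 65.4 CPM under siINTS11, and of these 4 hosts it alone had groups that did not overlap. SNHG1 had 48.9, 48.3 and 55.4 CPM against 53.9, 64.3 and 52.9 CPM. SNHG16 had 71.4, 69.3 and 76.1 CPM against 76.4, 89.0 and 74.5 CPM. In both, replicate 3 of siCtrl lay above a treated library, and replicate 2 of siINTS11 stood apart from the other two. ZFAS1, the most abundant member in reads, had 234, 222 and 238 CPM under siCtrl and 235, 264 and 227 CPM under siINTS11. Its groups overlapped throughout and its log2 value of 0.070 (SE 0.05) did not pass (adjusted p 0.219 in edgeR). Over the 10 members, 5 had siINTS11 levels in CPM wholly above siCtrl, which 36.4% of all genes tested had.

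**Figure D1:**
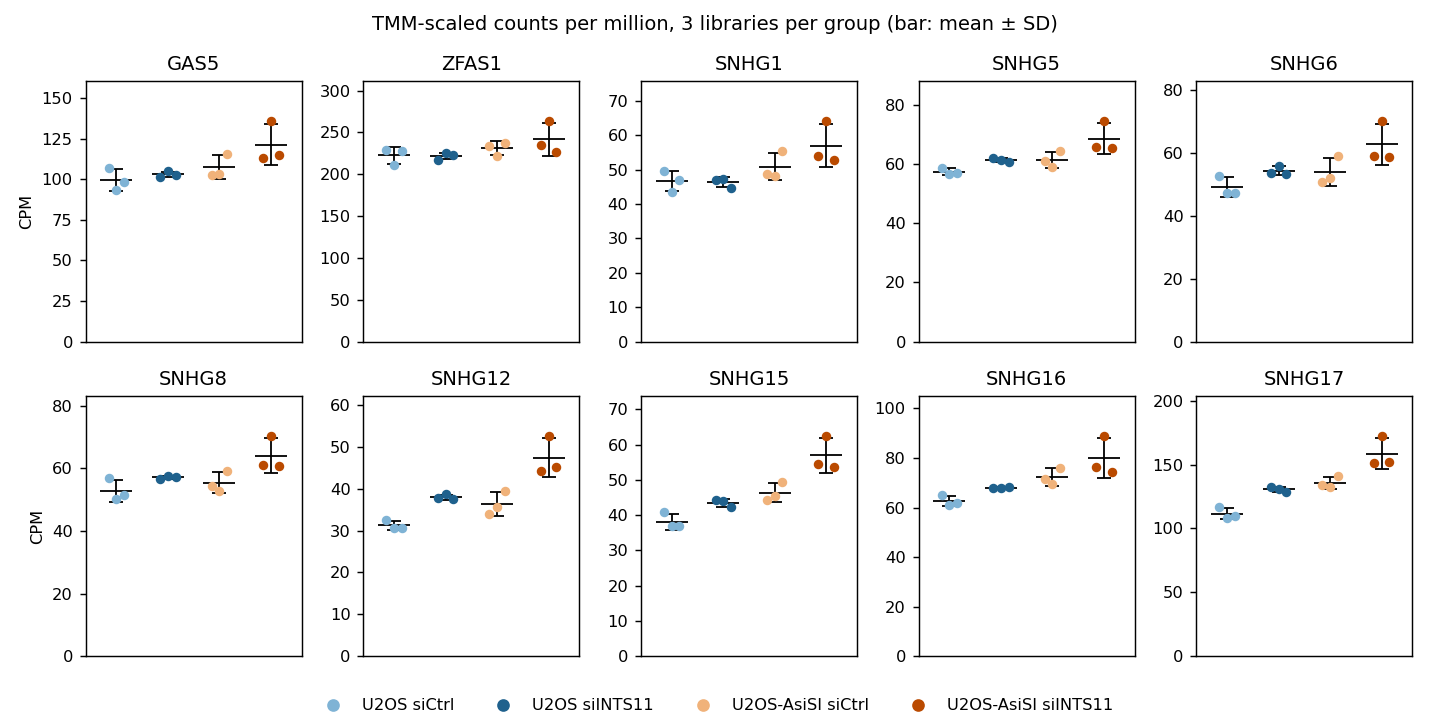
TMM-scaled CPM of each host gene (vertical axis, from 0) in the 3 libraries of each group (points, with mean and SD as bars). In U2OS-AsiSI siINTS11, replicate 2 is the highest point for all 10 genes, and SNHG12, SNHG15 and SNHG17 show the widest gaps between siCtrl and siINTS11.

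Raw reads per base told of much smaller differences in the same libraries. SNHG12 had 0.218, 0.247 and 0.235 reads per base under siCtrl and 0.276, 0.26 and 0.288 under siINTS11, and it was the only member whose raw values were higher without overlap, against 19.9% of all genes. GAS5 had 0.294, 0.32 and 0.307 against 0.313, 0.299 and 0.326, a difference of 2% in the mean with the groups fully interleaved. SNHG16 had 0.278, 0.292 and 0.275 against 0.289, 0.267 and 0.287, so that its mean stayed at 0.281 in both groups. In replicate 2 of siINTS11, the library with the lowest total, raw values were the lowest of the 3 treated libraries for each of the 10 members, while its CPM were the highest. ZFAS1 had 0.322, 0.331 and 0.304 reads per base under siCtrl and 0.315, 0.28 and 0.309 under siINTS11, a lower mean under siINTS11 although its CPM were higher.

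**Figure D2:**
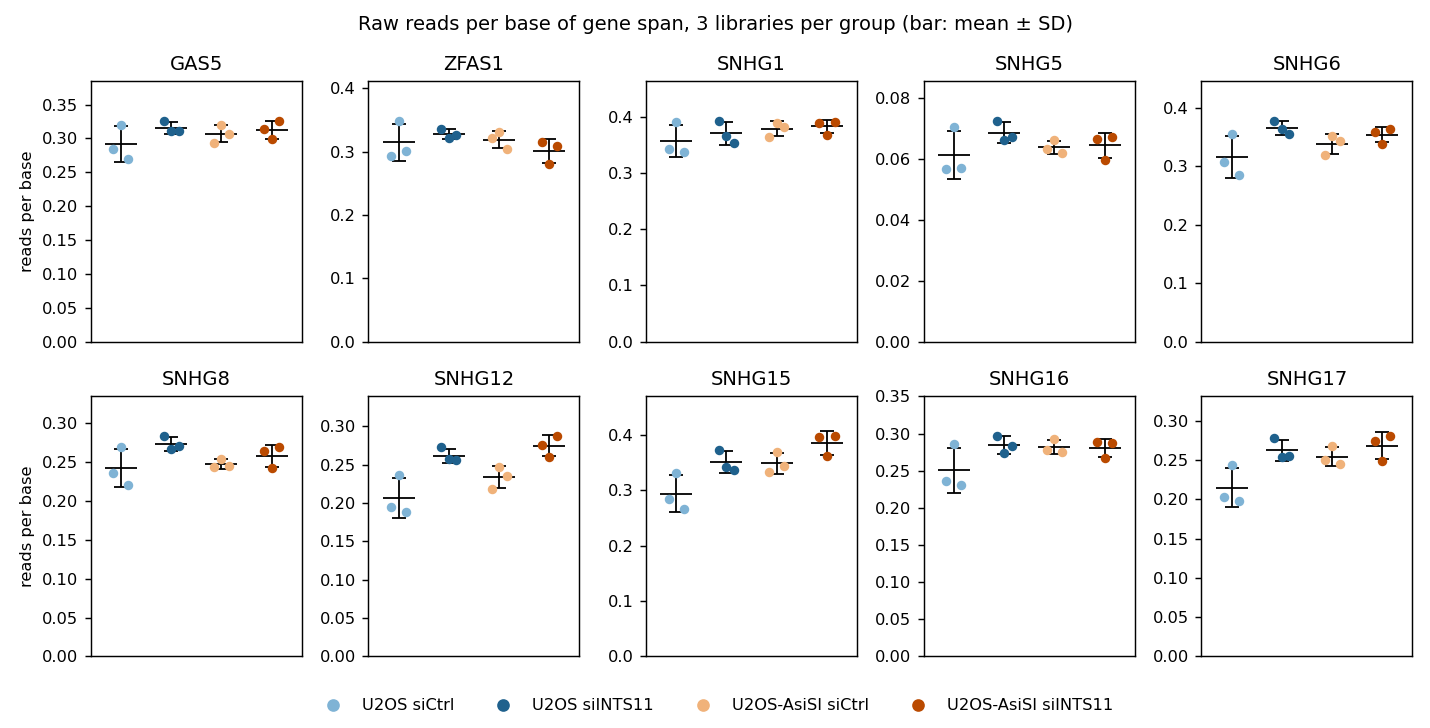
Raw reads per base of span for each host gene (vertical axis, from 0) in the 3 libraries of each group (points, with mean and SD as bars). In U2OS-AsiSI the siCtrl and siINTS11 points overlap for all genes except SNHG12, and SNHG5 lies far below the other 9.

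The same test on raw reads without any scaling for depth called 0 of 10 members in U2OS-AsiSI. Log2 fold changes then ran from -0.082 (ZFAS1) to 0.23 (SNHG12), with SEs between 0.15 and 0.16, and 9198 genes were still called over the whole table. This setting was chosen after the data had been seen, and it carries the difference in totals in full. The scaled calls also leaned on single libraries. Without replicate 2 of siINTS11, 5 members were called higher (SNHG6, SNHG8, SNHG12, SNHG15 and SNHG17), as were 32.6% of all genes tested. Without replicate 2 of siCtrl 6 were (those 5 and GAS5), beside 32.8% of all genes. With library totals alone all 10 were called higher, where 51.6% of all genes were and the median of all genes was 0.22. DESeq2 called 7 higher, beside 28.6% of all genes.

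**Figure D3:**
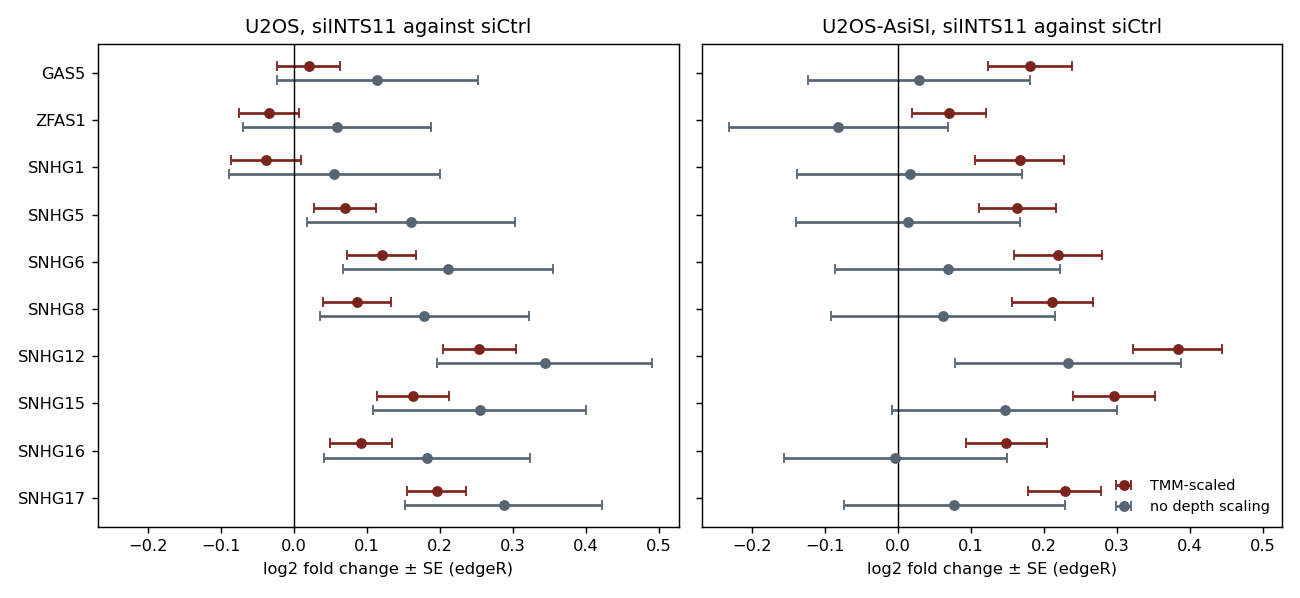
Log2 fold change of siINTS11 against siCtrl (horizontal axis, bars ± SE, edgeR) for each host gene with TMM scaling and with no scaling for depth, in U2OS on the left and U2OS-AsiSI on the right. Scaled values lie right of the unscaled ones in U2OS-AsiSI and left of them in U2OS, and the unscaled bars are the wider.

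Reads on these genes followed depth only in part. Summed over the 10 members, reads ran from 21771 to 27201 per library while totals varied 1.84-fold. Their share of the library ran from 0.0687% (replicate 2 of U2OS siCtrl, the deepest library) to 0.116% (replicate 2 of U2OS-AsiSI siINTS11, the shallowest). By gene, the highest of the 12 raw values was between 1.17 times (SNHG1) and 1.53 times (SNHG12) the lowest. Within groups, the slope of log reads on log library total, which is 1 where reads grow in proportion to depth, was between 0.354 (SNHG1) and 0.652 (SNHG5), with a median of 0.533. It was 0.378 for GAS5, 0.565 for ZFAS1 and 0.526 for SNHG12, so that in these libraries a deeper library did not bring proportionately more host reads. With counts thinned at random to the smallest total, 9 members were still called higher in U2OS-AsiSI, beside 34% of all genes. With counts adjusted for occupied positions 9 were too, beside 35.6%. Both settings start from the counts as deposited, and the part of depth in the scaled rises was not tested beyond these values.

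**Figure D4:**
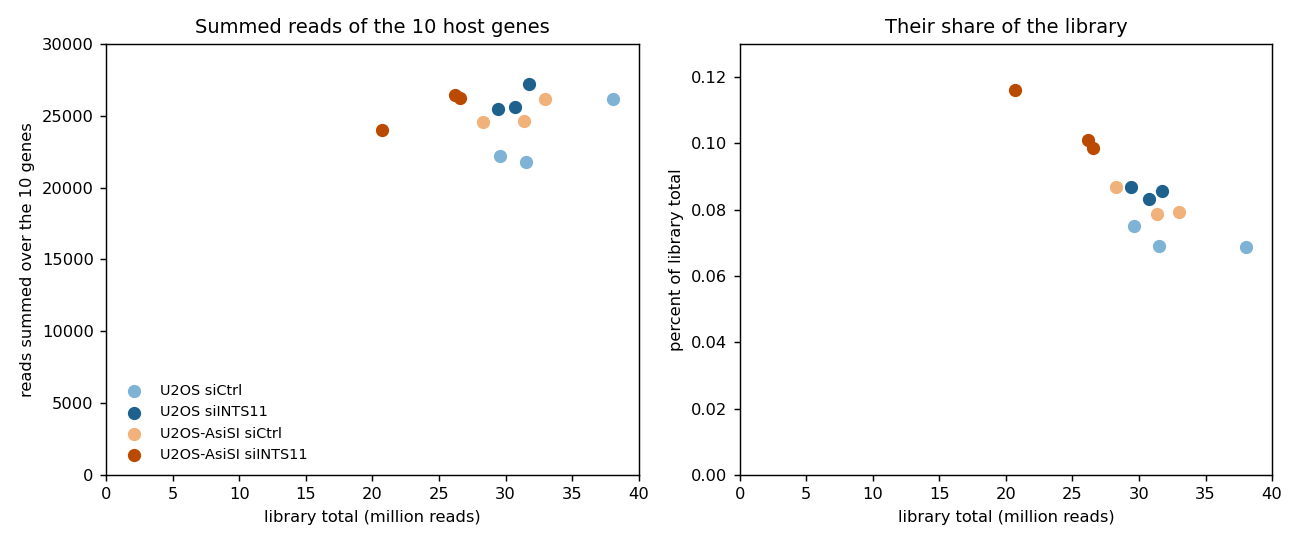
Reads summed over the 10 host genes (left) and their percent of the library (right) against the library total in reads, 1 point per library. Sums stay between 21771 and 27201 reads, and the percent is highest in the shallowest library, at 0.116%.

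For 9 of the 10 members, genes of like density behaved similarly. Over the 12 libraries the members' median raw density ran from 0.0661 (SNHG5) to 0.375 (SNHG1) reads per base, and 9 of them fell in the band of 0.2 to 0.4 reads per base, which held 300 genes. The median slope on depth in that band was 0.540, against 1.02 in the band of 0.03 to 0.1, where SNHG5 lay, and 0.223 above 0.4. In U2OS-AsiSI 71.7% of the genes in the members' band were called higher, with a median log2 fold change of 0.23. In U2OS 35.7% of that band were called higher, with a median of 0.064. The members' 9 of 10 and 4 of 10 are read against these shares, and nothing particular to host genes follows from them. SNHG5, in a band where 26.2% of genes were called higher in U2OS-AsiSI and the median was -0.074, changed by 0.16 there. Its place in that band rests on the table's span of 28442 bases, against 17799 in GENCODE 29, and its own slope on depth was 0.652. In the band of 0.1 to 0.2, 40.8% of genes were called higher, with a median change of 0.074 and a median slope of 0.829. SNHG5 thus had a larger change and a lower slope than the median gene of either band. The reason was not tested, and nothing about host genes is read from this single gene.

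**Figure D5:**
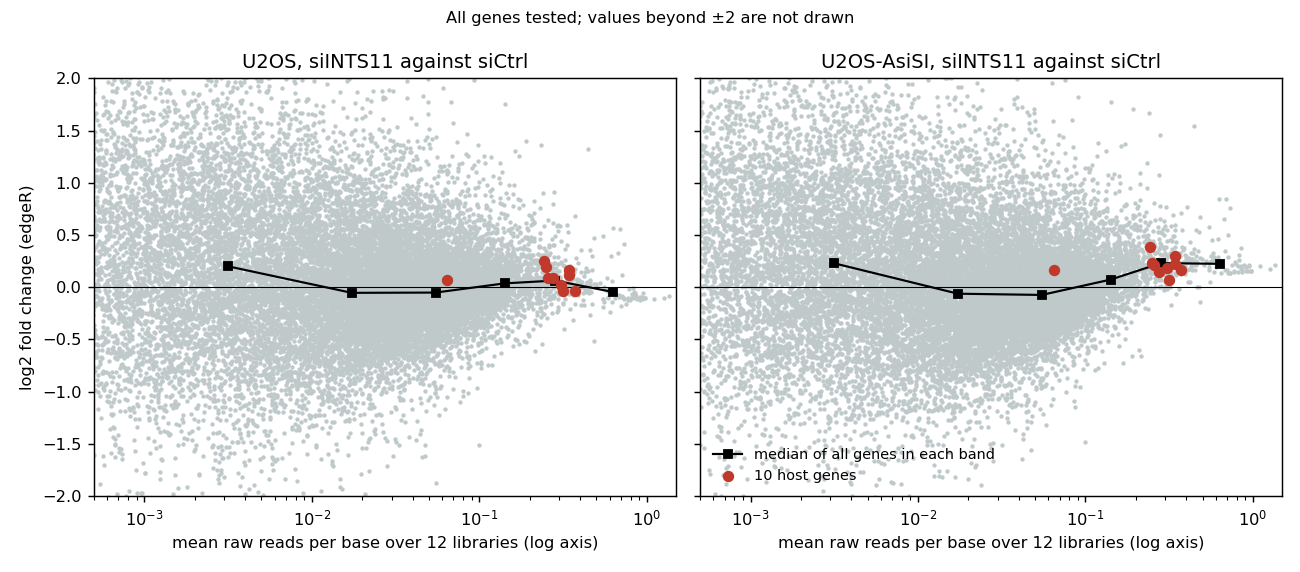
Log2 fold change of siINTS11 against siCtrl (vertical axis, edgeR) against mean raw reads per base over 12 libraries (horizontal log axis) for all genes tested, with the 10 host genes in red and the median of each density band as squares. In U2OS-AsiSI the band of 0.2 to 0.4 has a median of 0.23 and the host genes lie around it, while in U2OS that median is 0.064.

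In U2OS, siINTS11 was followed by higher scaled levels of 4 of the 10 hosts, SNHG12, SNHG17, SNHG15 and SNHG6, and by lower levels of none. Of all genes tested, 66.9% were called, 34.5% higher and 32.4% lower, so the members' share was near the background. The median log2 fold change of the 10 was 0.089, against 0.019 over 20687 genes. SNHG12 had 32.5, 30.7 and 30.5 CPM under siCtrl and 37.8, 38.6 and 37.5 CPM under siINTS11, with the groups well apart. The change was 0.25 on the log2 scale (SE 0.05, adjusted p 2.55e-05 in edgeR). SNHG17 had 117, 108 and 110 CPM against 132, 131 and 128 CPM, and rose by 0.20 (SE 0.04, edgeR adjusted p 4.39e-05). SNHG15 had 40.8, 36.8 and 36.8 CPM against 44.4, 44.0 and 42.3 CPM, and rose by 0.16. SNHG6 had 52.7, 47.3 and 47.3 CPM against 53.8, 56.1 and 53.4 CPM, and rose by 0.12 (SE 0.05, edgeR adjusted p 0.0232). The call on SNHG6 was lost with DESeq2 (adjusted p 0.104) and, in edgeR, without replicate 2 of siCtrl (adjusted p 0.0855), replicate 3 of siCtrl (0.0764) or replicate 2 of siINTS11 (0.105).

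The other 6 did not pass in U2OS. SNHG16 (0.092, adjusted p 0.0533 in edgeR), SNHG8 (0.086) and SNHG5 (0.070) had positive log2 values, and GAS5 (0.020), ZFAS1 (-0.034) and SNHG1 (-0.038) lay near 0. GAS5 had 107, 93.5 and 98.2 CPM under siCtrl and 102, 105 and 102 CPM under siINTS11, with the treated libraries inside the range of the controls. Without replicate 2 of siCtrl its log2 value was -0.013. In CPM, SNHG5, SNHG6, SNHG12, SNHG15, SNHG16 and SNHG17 were higher under siINTS11 without overlap, 6 of 10, against 38.2% of all genes. In raw reads per base, SNHG12, SNHG15 and SNHG17 were higher under siINTS11 without overlap, 3 of 10, against 31.3% of all genes. SNHG12 had 0.194, 0.236 and 0.188 reads per base under siCtrl and 0.272, 0.257 and 0.256 under siINTS11. SNHG17 had 0.203, 0.243 and 0.198 against 0.278, 0.254 and 0.255. For these genes the raw and scaled values pointed the same way in U2OS, where the group totals overlapped. With no scaling for depth 1 member, SNHG12, was called (0.34, SE 0.15, edgeR adjusted p 0.0472), as were 28.2% of all genes in that direction. With library totals alone all 10 were called higher, where 53% of all genes were. SNHG1 (0.16) and ZFAS1 (0.17) then lay below the median of all genes, 0.22. With a filter of at least 50 reads on average 7 were called, beside 36.1% of all genes called higher.

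None of the 10 members passed the test of a difference between the lines in their response to siINTS11, which 3.87% of all genes passed, 0.762% with a higher and 3.1% with a lower response in U2OS-AsiSI. The balance of directions over all genes turned with no count filter (1.01% higher and 0.775% lower), when means under 50 were dropped (2.82% and 1.39%) and without replicate 3 of U2OS siCtrl (0.857% and 0.743%). Adjusted p-values ran from 0.303 (SNHG1) to 0.996 (SNHG17) in edgeR. An unadjusted edgeR p under 0.05 was found for 0 of 10, against 18.6% of all genes. DESeq2 also called 0, against 1.97% of all genes. The estimates, U2OS-AsiSI minus U2OS on the log2 scale, were 0.17 (SE 0.09) for SNHG1, 0.13 (SE 0.08) for GAS5, 0.095 (SE 0.08) for SNHG12, 0.099 (SE 0.08) for SNHG15 and -0.0012 (SE 0.07) for SNHG17. SNHG17 alone had an estimate below 0, and the median of the 10 was 0.081, against -0.048 over all genes tested. The larger number of calls in U2OS-AsiSI than in U2OS is therefore not read as a difference between the lines. With SEs of this size the test does not show that the lines responded alike either. With no scaling for depth all 10 estimates were negative, from -0.21 (SNHG17) to -0.039 (SNHG1), and none was called.

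Under siCtrl, 4 of the 10 hosts were higher in U2OS-AsiSI than in U2OS: SNHG12, SNHG15, SNHG16 and SNHG17. Of all genes tested, 34.9% were called, 17.8% higher and 17.2% lower. In the band of 0.2 to 0.4 reads per base, where 9 members lay, 36.8% were called higher, with a median of 0.12. The members' 4 of 10 is read against that share, and nothing particular to host genes follows from it. SNHG15 had 44.3, 45.5 and 49.4 CPM in U2OS-AsiSI against 40.8, 36.8 and 36.8 in U2OS, a log2 difference of 0.29 with no overlap. SNHG17 differed by 0.28, SNHG12 by 0.22 and SNHG16 by 0.21. ZFAS1, at 0.058, differed least. In CPM 5 members were higher without overlap, against 23.0% of all genes, and in raw reads per base SNHG15 and SNHG17 were, against 6.47%. Without replicate 1 of U2OS siCtrl 8 members were called higher, beside 18% of all genes, and with no scaling for depth 0 were. This comparison uses the same siCtrl libraries as the siINTS11 comparisons within each line, so the order of the genes in it is not separate evidence.

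The 10 genes moved closely together over the 12 libraries, as far as scaled levels go. The correlation (Pearson's r of log2 CPM) of each member with the mean of the others was between 0.836 (ZFAS1) and 0.982 (SNHG5). The genes outside the list whose pattern was most like the members' mean were RPL19 (r = 0.994), SRSF7 (0.993) and RPS6 (0.991), among 13547 genes averaging at least 100 reads. RPL19 and RPS6 encode ribosomal proteins and SRSF7 a splicing factor. They are as dense in reads as the members, at 0.383, 0.343 and 0.352 reads per base, and all these values share the same library totals and scaling factors.

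Other genes of the snoRNA pathway gave a mixed picture. Of 23 other non-coding hosts, 17 had enough reads to be tested and SNHG3, SNHG4, SNHG28, SNHG32 and DANCR were listed at 0. Whether those 0 values meant silent genes was not tested, since all 424 snoRNA genes inside another gene were also listed at 0. In U2OS-AsiSI 8 of the 17 were called higher and 5 lower, and in U2OS 7 higher and 5 lower. The shares over all genes tested were 35.4% higher and 32.6% lower in U2OS-AsiSI, and 34.5% and 32.4% in U2OS. MEG8 rose from 18.5 ± 0.341 to 36.5 ± 1.17 CPM in U2OS-AsiSI (log2 fold change 0.99) and from 11.9 ± 0.49 to 30.9 ± 0.547 CPM in U2OS (1.35), and its response differed between the lines by -0.39 (SE 0.08, edgeR adjusted p 0.00462). SNHG11 rose by 0.56 and 0.58 in the 2 lines. SNHG18 fell from 8.78 ± 0.174 to 3.39 ± 0.499 CPM in U2OS-AsiSI (-1.35) and from 10.1 ± 0.642 to 3.89 ± 0.25 CPM in U2OS (-1.41). SNHG22 fell by 0.44 and 0.51 on the log2 scale. At 0.0445 reads per base or fewer, MEG8, SNHG18 and SNHG22 were far thinner in reads than 9 of the 10 members, and their fold changes were well beyond the members' range of 0.070 to 0.38.

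Protein-coding snoRNA hosts, many of them ribosomal protein genes, were set beside the members. Of 39 tested, 30 were called higher and 0 lower in U2OS-AsiSI with a median of 0.17, and 9 higher and 4 lower in U2OS with a median of 0.024. All genes tested gave 35.4% higher and 32.6% lower in U2OS-AsiSI, and 34.5% and 32.4% in U2OS. In the band of 0.2 to 0.4 reads per base, 71.7% and 35.7% were called higher. The counts are therefore not read as particular to host genes. RPL27A went from 97.7 ± 5.59 to 131 ± 8.12 CPM in U2OS-AsiSI (log2 fold change 0.42) and RPLP2 from 28.6 ± 1.55 to 37.4 ± 3.97 CPM (0.39). The smallest called rises were in DKC1 and RPL37, at 0.11 and 0.12, which turned to -0.033 and -0.035 with no scaling for depth. For 0 of the 39 did this response pass the test of a difference between the lines, against 3.87% of all genes tested.

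The proteins that bind snoRNAs were tested through their genes. Of 8 core components, 4 were called higher in U2OS-AsiSI and 5 in U2OS, and 0 lower in either. Over all genes tested, 35.4% and 34.5% were called higher in the 2 lines, and 32.6% and 32.4% lower. The assembly and decay genes below stand beside the same shares. FBL, the methyltransferase of box C/D particles, rose by 0.47 in U2OS-AsiSI and had -0.12 in U2OS, a difference between the lines of 0.55 (SE 0.16, edgeR adjusted p 0.0396) that passed in 2 of 12 fits made without 1 library. NOP56, also of box C/D particles, rose by 0.33 and 0.23. Of the box H/ACA proteins, NHP2 rose by 0.31 and 0.40, and DKC1, the pseudouridine synthase, by 0.11 and 0.16. Of 8 assembly factors, 2 were called higher and 3 lower in U2OS-AsiSI, and 3 and 3 in U2OS. PIH1D1 and RUVBL1 rose by 0.39 and 0.23 in U2OS-AsiSI, while NAF1, an assembly factor of box H/ACA particles, fell by 0.34 and ZNHIT6 fell by 0.20. Of 9 genes of nonsense-mediated decay tested, the route by which spliced host RNAs are removed, 6 were called lower and 1 higher in U2OS-AsiSI, and 5 lower and 0 higher in U2OS. UPF3B fell by 0.38 and UPF2 by 0.36 in U2OS-AsiSI. UPF1, the helicase of the pathway, rose by 0.10 there, a value that turned to -0.041 with no scaling for depth. UPF1 and UPF2 lay in the band of 0.03 to 0.1 reads per base. In that band 43.1% of genes were called lower in U2OS-AsiSI and 40.9% in U2OS. TT-seq counts new RNA, and the turnover of the host transcripts was not measured.

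Of the members, 4 start within 1000 bases of a gene that runs the other way. ZBTB37 starts 800 bases from GAS5, ZNFX1 starts 248 bases from ZFAS1, SLC3A2 starts 149 bases from SNHG1 and AC015802.4 starts 81 bases from SNHG16. In U2OS-AsiSI 3 of the 4 partners were called higher, beside 35.4% of all genes tested, and in U2OS 4 of 4 were, beside 34.5%. SLC3A2, an amino acid transporter subunit, went from 141 ± 3.38 to 178 ± 7.64 CPM in U2OS-AsiSI (log2 fold change 0.35) and from 124 ± 2.69 to 167 ± 2.9 CPM in U2OS (0.40). Its neighbour SNHG1 had 0.17 and -0.038, the second not past the test. ZNFX1 rose by 0.24 and 0.22, where ZFAS1 had 0.070 and -0.034, neither past the test. ZBTB37 rose by 0.22 in U2OS-AsiSI and 0.46 in U2OS, the only partner whose response differed between the lines (-0.27, SE 0.07, edgeR adjusted p 0.0353, passing in 2 of 12 fits made without 1 library), and GAS5 had 0.18 and 0.020. Partner and member of a pair were not tested against each other.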

How the data were processed

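Per the submitters' processing notes, reads were trimmed with Trimmomatic 0.36, and STAR 2.7, featureCounts, deepTools and hg38 are also named. The strand setting and handling of duplicate reads are not given in the sources used here. The deposited tables hold raw counts per gene over its span, with 0 columns left unmatched to a sample. Coordinates are as deposited. Yeast RNA was added per the labels' protocols, but its counts are not analysed here, so no depth scaling could be set against it.

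The tests were run in edgeR 4.0.16 under R 4.3.3 (filterByExpr, TMM, robust quasi-likelihood fit, two-sided), adjusted by Benjamini-Hochberg over all genes tested, with a threshold of 0.05. SE is the size of the log2 fold change divided by the root of F. Within-line comparisons used 6 libraries, and the difference between lines was the siRNA by line interaction over 12. The code was tested on simulated data. Replicates differed by more than sampling noise (chi-square per degree of freedom 2.11 to 3.1). Reads carry no molecular identifiers.

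Alternatives were other size factors, library totals, TMM factors from genes under 0.1 reads per base, other filters, the replicate block, DESeq2 1.42.0, thinning, counts adjusted for occupied positions, each library left out and, added later, no depth scaling. Members and lists were chosen with earlier results of these data known. Named genes are the members, INTS11, up to 2 called changes at either end of each list in U2OS-AsiSI (mean count at least 100), and the 3 genes most like the members. One osteoblast-lineage marker is not reported here.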

Additional observations from a re-analysis of the deposited data

Results flagged for a closer look

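None of the 10 host genes passed the test of a difference between the lines in the response to siINTS11, but 3 genes named beside them did. MEG8, another non-coding host, rose in both lines and by less in U2OS-AsiSI, the difference (U2OS-AsiSI minus U2OS, log2) being -0.39 (SE 0.08, edgeR adjusted p 0.00462). It passed in 12 of 12 fits made without 1 library and in 9 of 10 other alternatives, failing with no depth scaling (-0.59, edgeR adjusted p 0.4).

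FBL went from 3.73 ± 0.195 to 5.13 ± 0.103 CPM in U2OS-AsiSI and from 3.6 ± 0.404 to 3.38 ± 0.106 CPM in U2OS (SD, n = 3), and the difference was 0.55 (SE 0.16, edgeR adjusted p 0.0396). It passed in 2 of 12 fits made without 1 library, where the difference ran from 0.47 to 0.67, and in 7 of the 9 other alternatives that gave a p.

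ZBTB37, which starts beside GAS5, went from 32.4 ± 0.97 to 37.7 ± 1.1 CPM in U2OS-AsiSI and from 28.2 ± 1.85 to 39.6 ± 1.58 CPM in U2OS, and the difference was -0.27 (SE 0.07, edgeR adjusted p 0.0353). It passed in 2 of 12 fits made without 1 library, where the difference ran from -0.33 to -0.19, and in 4 of 10 other alternatives. Without replicate 3 of U2OS siCtrl its adjusted p was 0.238 in edgeR.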

How the results depend on the processing

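Counts of called members moved most with depth scaling, and the cause was not tested. With no depth scaling (chosen after seeing the data) they were 0 in U2OS-AsiSI, 1 in U2OS and 0 between the lines under siCtrl, and counts over all genes were 9198, 8686, 311 and, for the difference between lines, 3. With library totals alone 10 members were called in U2OS and 9 between the lines, the median of all genes moved to 0.22 in both lines, and 72.3% and 74.3% of calls were higher in place of 52.1% and 51.6%. Called higher with library totals were 53% of all genes tested in U2OS and 24.7% between the lines. Dropping genes that averaged under 50 reads gave 7 members in U2OS, beside 36.1% of all genes called higher. Leaving out 1 library gave 5 to 9 members in U2OS-AsiSI (5 without replicate 2 of siINTS11), 3 to 6 in U2OS and 4 to 8 between the lines (8 without replicate 1 of U2OS siCtrl). Of all genes tested, 31.4% to 34.5%, 31.6% to 34.7% and 13.7% to 18% were called higher in those fits. The difference between lines called 0 members under every alternative run, while its 832 genes became 447 with median-of-ratios factors, 1281 with the replicate block, 423 with DESeq2, 530 after thinning and 288 to 945 without 1 library. Its share of higher calls, 19.7%, was 39.6% with median-of-ratios factors, 40.9% with DESeq2, 56.6% with no filter and 67% when means under 50 were dropped. With no depth scaling 40%, 67.1% and 38.6% of calls were higher in U2OS-AsiSI, U2OS and between the lines (50.9% in the last as reported, 67.4% with library totals).

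Signs of the members and INTS11 turned as follows, in values that no test had called except SNHG16 in U2OS-AsiSI. With no depth scaling ZFAS1 was -0.082 and SNHG16 -0.0034 in U2OS-AsiSI, and ZFAS1 was 0.059 and SNHG1 0.055 in U2OS. INTS11 in U2OS-AsiSI was 0.062 with library totals. In U2OS, ZFAS1 and SNHG1 were 0.17 and 0.16 with library totals and 0.0077 and 0.0037 when means under 50 were dropped. Without 1 library SNHG1 ran from -0.077 to 0.012 and GAS5 from -0.013 to 0.082. For the difference between lines with no depth scaling, GAS5 was -0.086, ZFAS1 -0.14, SNHG1 -0.039, SNHG5 -0.15, SNHG6 -0.14, SNHG8 -0.12, SNHG12 -0.11, SNHG15 -0.11 and SNHG16 -0.19. SNHG17 there was 0.031 with median-of-ratios factors, 0.023 with totals, 0.013 with factors from thin genes, 0.048 with no filter, 0.069 when means under 50 were dropped and 0.031 with DESeq2. Without 1 library SNHG17 ran from -0.053 to 0.066, SNHG16 from -0.046 to 0.088 and SNHG6 from -0.0087 to 0.15. Of the other named genes, in U2OS-AsiSI UPF3A (-0.11) was 0.075 with library totals, and DKC1, RPL37 and UPF1 were -0.033, -0.035 and -0.041 with no depth scaling. In U2OS with library totals RPL37 was 0.19, UPF3A 0.11, UPF1 0.14, ZNHIT6 0.077 and FBL 0.078, and with no depth scaling UPF3A was 0.00025 and UPF1 0.032. RPL37 there (-0.012) was 6.2e-05 with factors from thin genes, 0.030 when means under 50 were dropped, 0.0062 with occupancy-adjusted counts and -0.040 to 0.029 without 1 library.

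With the replicate block, the members called numbered 9 in U2OS-AsiSI, 4 in U2OS, 0 for the difference and 5 between the lines. Of all genes tested, 36%, 34% and 16.3% were then called higher in U2OS-AsiSI, U2OS and between the lines, and 5.95% were called for the difference. Same-numbered libraries correlated between -0.108 and 0.137 in their deviations from group means, so the numbers were not taken as pairs.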
